A study of Mus musculus with 2 samples.

Results

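The genes of hyaluronan synthesis, binding and breakdown were taken as the 9 rows of the deposited gene table whose symbol was Has1, Has2, Cd44, Hmmr, Tnfaip6, Hyal1, Hyal2, Lyve1 or 9930013L23Rik, out of 38972 gene rows. All 9 had a row and all 9 passed the filter on low counts, so none was left out. 9930013L23Rik is an older symbol of Cemip, the name that the GENCODE annotation gives to the same gene identifier. RNA was sequenced from lung cells isolated as fibroblasts, with 1 library from myoFoxf1 KO mice and 1 from Foxf1fl/fl mice, both of the C57Bl/6 background. The myoFoxf1 KO mice carry αSMA-Cre-ERT2 and Foxf1fl/fl, a design in which tamoxifen switches on Cre where the promoter of smooth muscle actin is active, so that the forkhead factor gene Foxf1 is deleted in smooth muscle cells and myofibroblasts and not in every lung cell. The Foxf1fl/fl mice are littermates with the same floxed alleles and no Cre. The protocol of the series gives bleomycin, a drug that scars the lung, at 1 or 2 U/kg once a week for 2 to 4 weeks, and tamoxifen at 40 mg/kg on days 2 to 4 to transgenic mice. Dose and duration for these cells, the number and age of the animals behind a library, and tamoxifen in the Foxf1fl/fl mice are not stated in the labels, and bleomycin is named in the title of the control sample but not in that of the knockout.

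Hyaluronan is a long unbranched polysaccharide of the extracellular matrix. Synthases in the plasma membrane build it from the nucleotide sugars UDP-glucuronic acid and UDP-N-acetylglucosamine and extrude it as they go. Cells hold it through receptors such as CD44, secreted proteins crosslink it, and hyaluronidases and lysosomal exoglycosidases break it down. It is known to accumulate in the mouse lung after bleomycin injury.

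The libraries held 15122824 reads assigned to genes in the knockout and 16145959 in the control. Levels are given as CPM (reads scaled to library size with TMM) when 1 gene is compared between libraries. The deposited FPKM, which is per length, is used when genes are compared with each other. FPKM carries no TMM scaling, so its differences between libraries are not those of CPM. A gene was called higher or lower in the knockout when the ratio of its CPM was 2-fold or more in that direction with an exact 95% interval, covering counting error only, that left out 1. With 1 library per genotype there is no replicate check, overlap between groups cannot be judged and no p-value is given. Foxf1 itself had 49 reads (3.61 CPM) in the knockout and 158 reads (8.77 CPM) in the control, a log2 ratio of -1.27 with an interval of -1.77 to -0.81. It was called lower, and corrected for the GC content and length of transcripts it stood at -0.87 (interval -1.37 to -0.40), short of a call. The isolated cells were not fibroblasts alone. Lyz2, the macrophage lysozyme, stood at 17157 FPKM in the knockout and 9887 FPKM in the control, against 89.1 and 228 FPKM for the fibroblast proteoglycan gene Dcn. Of the fibroblast markers 8 of 13 were called lower and 1 higher (Fn1, which macrophages also express). The mesothelial markers were called lower in 8 of 8, the epithelial markers in 8 of 11 and the blood endothelial markers in 4 of 10, none of them higher, while 3 of 9 macrophage markers with a row were called higher and none lower. With the same correction 7 of 13 fibroblast, 7 of 8 mesothelial, 5 of 11 epithelial and 5 of 10 blood endothelial markers were called lower. Then 4 of 9 macrophage markers and 1 fibroblast marker were called higher. The marker with the highest mean CPM of each list had a log2 ratio of 1.11 for Lyz2 of macrophages and 1.74 for Fn1. It was -2.37 for Krt8 of the mesothelial list, a keratin gene that epithelium also expresses, and -1.92 for Scgb1a1 of epithelium. It was -0.24 for Vwf of blood endothelium, 1.99 for S100a9 of neutrophils and -2.10 for Cd79a of lymphocytes. In such bulk samples fewer cells of a type and less RNA per cell cannot be told apart.

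Of the 9 hyaluronan genes 3 were called higher in the knockout library (9930013L23Rik, Hmmr and Cd44) and 1 lower (Has1). Across all 14455 measured genes 9.37% were called higher, 14.2% lower and 23.6% in either direction. That split of 1355 genes higher and 2053 lower became 587 and 3212 when libraries were scaled by their totals alone, which gave 2 members higher and 2 lower. The median log2 ratio of the 9 genes was -0.40, against 0.01 for all measured genes. The members pointed in different ways, with 4 ratios above 0 and 5 below, and a range of -2.13 to 1.76. Ratios of all genes followed the GC content of their transcripts. With 1 library per genotype, a trend from library preparation and one from the mix of cells cannot be told apart. The correction subtracts lowess trends on GC content and transcript length, and may also remove differences between the cells. Ratios of the 9 members are also given after it, as are those of other named genes whose call it changed. Under this correction 1 member was called higher (9930013L23Rik) and 3 lower (Has1, Has2 and Tnfaip6), against 5.28% of all genes higher, 11.1% lower and 16.4% in either direction.

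**Figure D1:**
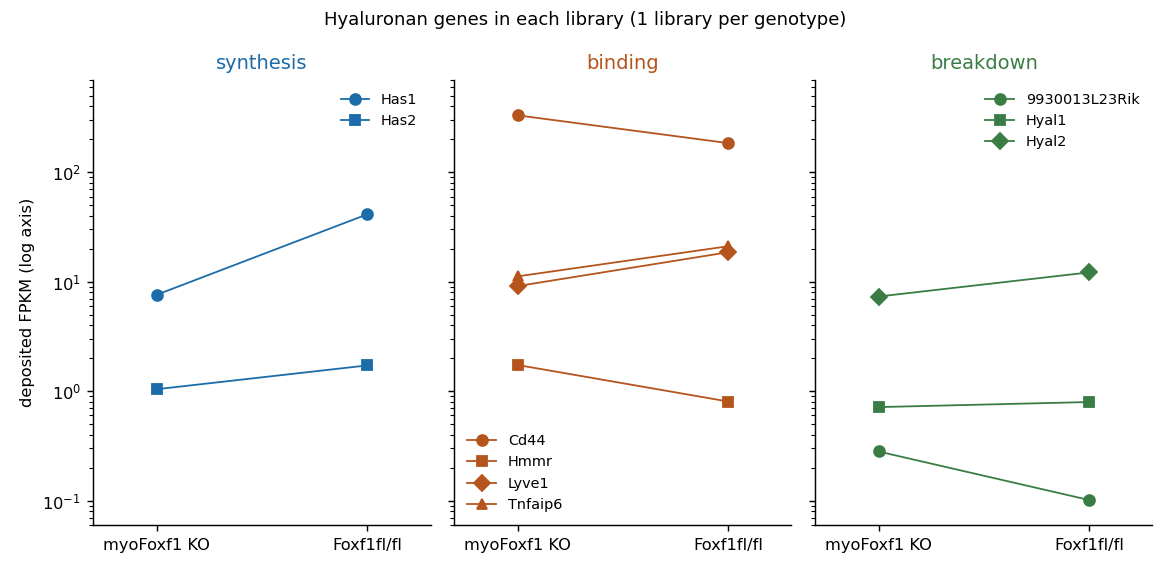
Deposited FPKM (log axis) of the 9 hyaluronan genes in the myoFoxf1 KO library and the Foxf1fl/fl library, 1 point per library, in panels for synthesis, binding and breakdown. Cd44 is the highest line in both libraries at 331 and 185 FPKM, and the Has1 line stands at 7.59 FPKM in the knockout and 41.3 FPKM in the control. FPKM carries no TMM scaling.

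The promoters of the 4 called genes are shown because their ratios are the ones the account turns on. Each is 300 bases, from 250 before the start of transcription to 50 from it, read 5′ to 3′ on the strand of the gene from RefSeq on GRCm38.p6. Capitals mark matches to 6 short motifs searched on both strands: the forkhead core TAAACA, the cAMP response element TGACGTCA, the AP-1 site TGAGTCA, the CCAAT box CCAAT, the cell cycle homology region TTTGAA and the TATA box TATAAA.
Has1, chr17:17855139-17855438, minus strand: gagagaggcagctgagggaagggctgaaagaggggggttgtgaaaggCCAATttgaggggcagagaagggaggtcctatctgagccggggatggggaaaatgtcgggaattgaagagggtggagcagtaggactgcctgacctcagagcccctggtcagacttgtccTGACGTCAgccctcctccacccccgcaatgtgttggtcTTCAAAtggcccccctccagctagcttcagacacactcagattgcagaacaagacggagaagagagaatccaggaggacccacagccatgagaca
Cd44, chr2:102901616-102901915, minus strand: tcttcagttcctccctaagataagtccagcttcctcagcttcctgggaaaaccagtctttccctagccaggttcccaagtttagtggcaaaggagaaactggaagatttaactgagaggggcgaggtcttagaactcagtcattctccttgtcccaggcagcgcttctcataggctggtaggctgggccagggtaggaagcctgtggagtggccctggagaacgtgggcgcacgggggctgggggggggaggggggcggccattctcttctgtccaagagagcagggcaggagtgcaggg
Hmmr, chr11:40733388-40733687, minus strand: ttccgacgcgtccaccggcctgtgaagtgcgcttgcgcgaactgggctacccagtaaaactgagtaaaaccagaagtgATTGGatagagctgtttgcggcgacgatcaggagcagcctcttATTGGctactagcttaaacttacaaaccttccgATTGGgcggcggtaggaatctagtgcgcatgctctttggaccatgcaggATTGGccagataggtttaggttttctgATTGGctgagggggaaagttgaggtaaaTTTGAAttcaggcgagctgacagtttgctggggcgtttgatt
9930013L23Rik, chr7:84086456-84086755, minus strand: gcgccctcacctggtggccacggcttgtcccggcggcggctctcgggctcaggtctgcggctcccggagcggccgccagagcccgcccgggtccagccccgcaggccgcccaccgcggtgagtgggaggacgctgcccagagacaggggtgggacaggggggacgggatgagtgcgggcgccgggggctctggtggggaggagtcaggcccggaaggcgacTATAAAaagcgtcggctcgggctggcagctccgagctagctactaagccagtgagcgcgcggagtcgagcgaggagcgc

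Promoters of 7 of the 9 genes were in the table. Has2 and Lyve1 were not among them. The forkhead core, a motif of the family of Foxf1, was searched only as the exact letters TAAACA, so other spellings of a forkhead site were not covered. TAAACA had no match in any of the 7 windows, and 13.4% of 32851 promoters of the same length held it. Has1 held 1 cAMP response element, 83 to 76 bases before the start, a motif that 1.79% of promoters held, and also 1 CCAAT box and 1 cell cycle homology region. Hmmr held 5 CCAAT boxes, all on the strand opposite to the gene, and 1 cell cycle homology region between bases 8 and 13 after the first transcribed base. A CCAAT box was found in 37.4% of promoters, with 3 or more in 3.37%, and a cell cycle homology region in 17.9%. CCAAT boxes together with a cell cycle homology region are known from promoters of genes of the late cell cycle. 9930013L23Rik held a TATA box 29 to 24 bases before the start, which 13.6% of promoters held. Tnfaip6 held 1 AP-1 site, 142 to 136 bases before the start (5.20% of promoters), and 2 CCAAT boxes, Hyal1 held 1 CCAAT box, and Cd44 and Hyal2 held no match. Matches of letters are a description of these windows and say nothing of binding in these cells.

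**Figure D2:**
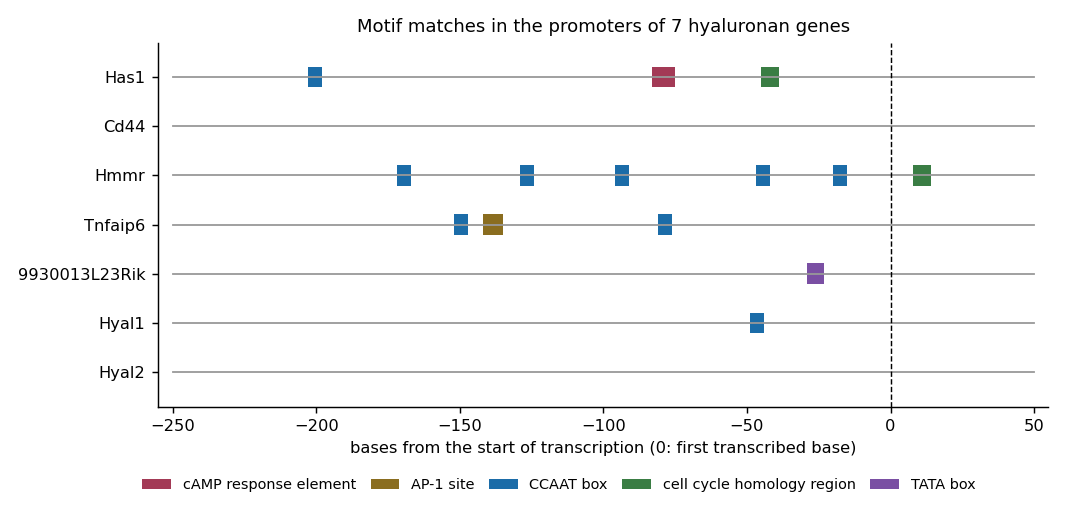
Matches to the searched motifs along the 300-base promoters of 7 hyaluronan genes, with distance in bases from the start of transcription on the x axis and 1 coloured block per match. Hmmr shows 5 CCAAT boxes, and the Cd44 and Hyal2 lines are empty.

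Has1 encodes a hyaluronan synthase and lies on chromosome 17 from 17843328 to 17855188 on the minus strand of GRCm38 (Ensembl identifier ENSMUSG00000003665). It had 240 reads (17.7 CPM) in the knockout library and 1394 reads (77.4 CPM) in the control library. The log2 ratio was -2.13 with an interval of -2.33 to -1.93, or 4.37 times lower in the knockout, which placed it 312th from the lowest among the 14455 measured genes. At its 48.1% GC the trend was 0.14, and the corrected ratio was -2.27. Has1 was called lower under all 13 alternative settings tried. Those that changed only the filter or the threshold left its ratio at -2.13, and none was relative to the mesothelial markers. Relative to the fibroblast markers Has1 stood at -1.08 and was still called. The median of those markers was -1.04, and that of the 8 mesothelial markers was -1.81. The summed level of the mesothelial markers was 359.8 CPM in the knockout and 1415 CPM in the control, with none at 0 reads. Most of that sum came from the keratin genes Krt8 and Krt19, which epithelium also expresses. Krt8 had 135 CPM in the knockout and 697 CPM in the control, and Krt19 had 170 and 487 CPM. The fibroblast and mesothelial lists both moved in the direction of Has1, and their part in its ratio was not tested.

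Has2 encodes the synthase that is essential in the mouse embryo. It lies on chromosome 15 from 56665627 to 56694539. It had 67 reads (4.94 CPM) in the knockout and 118 reads (6.55 CPM) in the control. Its log2 ratio of -0.40 had an interval of -0.86 to 0.04 that includes no difference. At 40.6% GC its trend was the highest of the members at 0.62, and after correction it was called lower at -1.03. The antisense gene Has2os shares 182 exon bases with Has2 and had 1 read in each library, and these libraries do not mark strand. Has3, the remaining synthase gene, was near the limit of the filter with 18 reads in the knockout and 27 in the control, and was not called (-0.17, interval -1.12 to 0.74).

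Per length, Has1 was the main synthase gene in both libraries. It made up 86.1% of the summed FPKM of the 3 synthase genes in the knockout and 95.4% in the control, Has2 11.8% and 3.97%, and Has3 2.06% and 0.60%. The sum itself was 8.82 FPKM in the knockout and 43.3 FPKM in the control, without the TMM scaling of CPM. For Has1 alone the log2 ratio was -2.43 from FPKM plus 0.1 and -2.13 from CPM. Has1 had 7.29 times the FPKM of Has2 in the knockout and 24.0 times in the control. Within the reads of these 2 genes the log2 ratio of ratios of Has1 over Has2 was -1.72 (interval -2.21 to -1.22), a value that does not depend on how the libraries were scaled. Corrected for GC content and length it was -1.24.

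**Figure D3:**
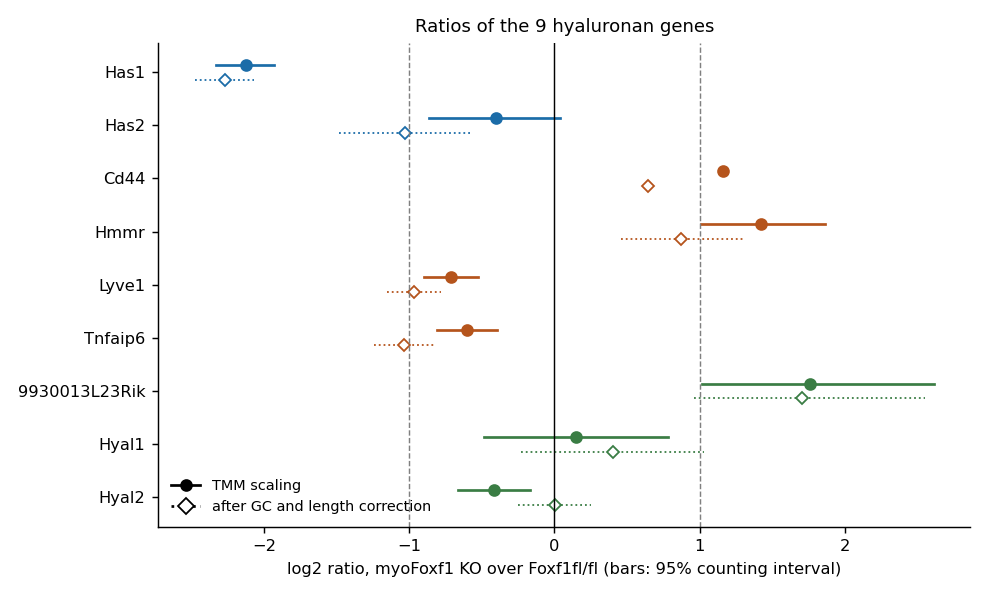
Log2 ratio of myoFoxf1 KO over Foxf1fl/fl for the 9 hyaluronan genes, with filled circles for TMM scaling, open diamonds for the value after the GC and length correction, bars for the 95% counting interval and dashed lines at 2-fold. Has1 is far to the left under both (-2.13 and -2.27) and 9930013L23Rik far to the right (1.76 and 1.70), while the Cd44 and Hmmr diamonds are inside the dashed lines.

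Cd44 encodes the main cell surface receptor of hyaluronan, which macrophages, lymphocytes and fibroblasts carry. It lies on chromosome 2 from 102811141 to 102901665, minus strand, with up to 19 exons in an annotated transcript. Cd44 had 33926 reads (2503 CPM) in the knockout and 20189 reads (1121 CPM) in the control, a log2 ratio of 1.16 with an interval of 1.13 to 1.18. It was the most abundant of the 9 genes per length in both libraries, at 331 FPKM in the knockout and 185 FPKM in the control, and made up 89.5% and 65.6% of their summed FPKM. Of the measured genes 99.1% had a lower FPKM in the knockout and 97.8% in the control. The call was lost with the GC and length correction, at 0.65, and with library totals alone, at 0.84. The median log2 ratio of the 9 macrophage markers was 0.78, with a summed level of 28852 CPM in the knockout and 14016 CPM in the control and none at 0 reads. Relative to that median Cd44 stood at 0.37 and was not called. Of the 8 lymphocyte markers 1 was called higher and 3 lower, or 1 and 4 after the correction. Which cells carry the transcript was not tested. The table gives 1 value per gene, so the splice forms of Cd44 are not told apart.

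Lyve1 encodes a receptor related to CD44 that marks lymphatic vessels and is also made by some tissue macrophages. It had 360 reads (26.6 CPM) in the knockout and 783 reads (43.5 CPM) in the control. Its log2 ratio of -0.71 (interval -0.90 to -0.53) was below 0 beyond counting error and short of 2-fold, and corrected for GC content and length it was -0.96. Library totals alone brought it past the threshold, at -1.03. Of the 6 lymphatic endothelial markers 2 were called higher and none lower, with a median log2 ratio of 0.08. The ratios were 3 above 0 and 3 below. Pdpn, the gene of podoplanin, was called higher at 2.44 (corrected 2.46). Ccl21a, a chemokine of lymphatic vessels, had 23.8 CPM in the knockout and 40.3 CPM in the control (-0.76, corrected -0.15), and Flt4, a lymphatic growth factor receptor, had 6.42 and 10.7 CPM (-0.74, corrected -0.41), neither of them called. Prox1, the lymphatic transcription factor, was called higher with 10.1 CPM in the knockout and 4.89 CPM in the control (1.04, corrected 0.51 and not called). Mmrn1 (0.29, corrected -0.27) and Reln (-0.13, corrected -0.25) were not called. The macrophage markers had a median of 0.78. The part of lymphatic vessels and of macrophages in the Lyve1 ratio was not tested. Cd44 had 36.3 times the FPKM of Lyve1 in the knockout and 9.92 times in the control, a log2 ratio of ratios of 1.87 (interval 1.69 to 2.06).

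Hmmr encodes a hyaluronan-binding protein that also sits on the mitotic spindle and is transcribed in dividing cells. Its promoter with the CCAAT boxes is printed above. Hmmr had 142 reads (10.5 CPM) in the knockout and 70 reads (3.89 CPM) in the control, and its log2 ratio was 1.42 with an interval of 1.01 to 1.86. It was short of a call after the correction, at 0.87. All 21 mitosis genes had ratios above 0, and 11 of them were called higher and none lower, with a median of 1.02. Their summed level was 462 CPM in the knockout and 209.7 CPM in the control, with none at 0 reads. Mki67, a nuclear protein gene of dividing cells, had 114 CPM in the knockout and 41.6 CPM in the control (1.46). After the correction 4 of the 21 were called, and their median was 0.67. The part of cell division in the Hmmr ratio was not tested.

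Tnfaip6 encodes TSG-6, a secreted protein of inflammation that moves heavy chains of the inter-alpha-inhibitor onto hyaluronan. It lies on chromosome 2 from 52038009 to 52056686, plus strand. It had 289 reads (21.3 CPM) in the knockout and 582 reads (32.3 CPM) in the control, and its log2 ratio of -0.60 (interval -0.81 to -0.39) was not called. With 41.1% GC it was called lower after the correction, at -1.03 (interval -1.24 to -0.83). Per length it was the second most abundant of the 9 genes in the knockout at 11.2 FPKM and stood behind Cd44 and Has1 in the control at 21.1 FPKM.

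**Figure D4:**
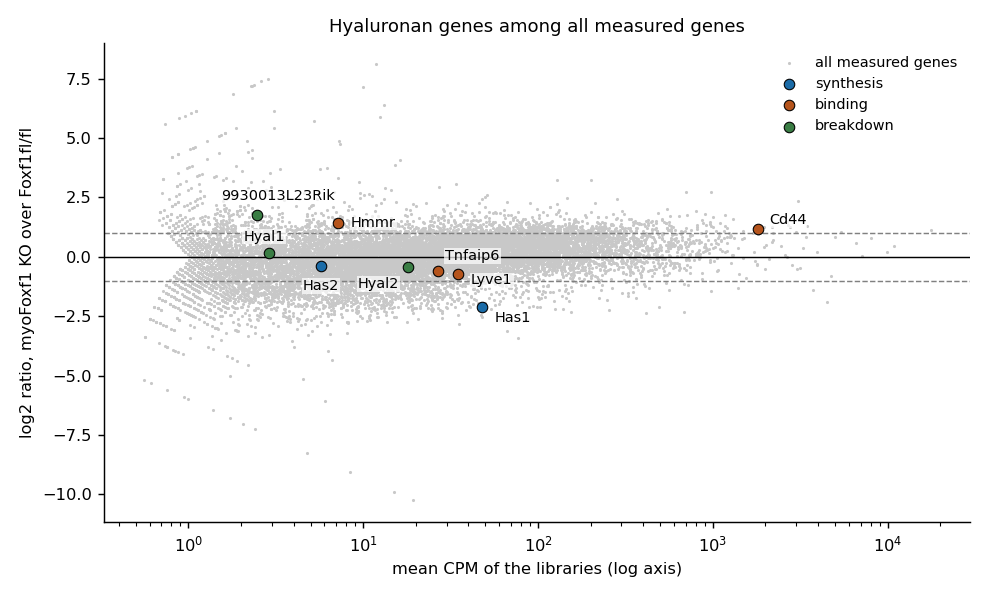
Log2 ratio of myoFoxf1 KO over Foxf1fl/fl against the mean CPM of the libraries (log axis) for 14455 measured genes in grey, with the 9 hyaluronan genes in colour by role and dashed lines at 2-fold. Has1 at -2.13 is below the lower dashed line, and Hmmr at 1.42 and 9930013L23Rik at 1.76 stand above the upper dashed line at low CPM.

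9930013L23Rik (Cemip) encodes a protein that binds hyaluronan and is needed for its depolymerisation by skin and synovial fibroblasts in humans. It lies on chromosome 7 from 83932857 to 84086502, minus strand. It had 52 reads (3.84 CPM) in the knockout and 20 reads (1.11 CPM) in the control, the highest log2 ratio of the 9 genes at 1.76, with a wide interval of 1.02 to 2.61. The correction left it at 1.70, still called. It was also the lowest of the 9 per length, at 0.28 FPKM in the knockout and 0.10 FPKM in the control, so the ratio rests on few reads. In FPKM it stood under the 1 FPKM minimum of the FPKM alternatives, and relative to the macrophage markers, at 0.97, it was not called.

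Hyal2 encodes a hyaluronidase anchored at the cell surface and Hyal1 one of the lysosome, and the genes are neighbours on chromosome 9. Hyal2 had 210 reads (15.5 CPM) in the knockout and 372 reads (20.7 CPM) in the control, with a log2 ratio of -0.41 (interval -0.67 to -0.17) that was 0.00 after the correction. Hyal1 had 41 reads (3.02 CPM) in the knockout and 49 reads (2.72 CPM) in the control, with a log2 ratio of 0.15 (interval -0.48 to 0.78) that was 0.40 after the correction. Neither was called. Hyal2 had the larger share of the summed FPKM of these 2 genes, 91.1% in the knockout and 93.9% in the control. The log2 ratio of ratios of Hyal1 over Hyal2 was 0.57 with an interval of -0.12 to 1.25 that includes no difference. Annotated exons of Hyal1 share 1920 bases with Naa80 and 159 bases with Hyal3 on the same strand, so the Hyal1 counts are uncertain. Gusb, the beta-glucuronidase of the lysosome that acts on the fragments, had a higher level per length than either, at 65.6 FPKM in the knockout and 45.4 FPKM in the control.

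The order of the 9 genes by FPKM was Cd44, Tnfaip6, Lyve1, Has1, Hyal2, Hmmr, Has2, Hyal1 and 9930013L23Rik in the knockout library. In the control it was Cd44, Has1, Tnfaip6, Lyve1, Hyal2, Has2, Hmmr, Hyal1 and 9930013L23Rik. Has1 stood at place 4 in the knockout and at place 2 in the control. Several neighbours in the order were close, as Has1 at 7.59 FPKM and Hyal2 at 7.32 FPKM in the knockout, and with 1 library per genotype their order has no spread to be set against.

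The other genes of the pathway were taken from lists of 51 genes, of which 36 were measured. Of these 7 were called higher and 2 lower, against the 9.37% and 14.2% of all genes. Their median log2 ratio was 0.18, against 0.01 for all genes. After the correction 6 were called higher and 2 lower, against 5.28% and 11.1%.

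Of the 10 genes of precursor supply, Has3 included, 1 was called higher and 1 lower. Gfpt2, an isoform of the enzyme that starts the hexosamine pathway, was called lower with 64.3 CPM in the knockout and 150.5 CPM in the control (log2 ratio -1.23, the same after correction). Gfpt1, the other isoform, had 220.3 CPM in the knockout and 129 CPM in the control (0.77, corrected 0.21) and was not called. Ugp2, which makes UDP-glucose, was called higher with 172 CPM in the knockout and 84.7 CPM in the control (1.02), a call that was lost at 0.44 once corrected. Ugdh, which makes UDP-glucuronic acid, did not differ beyond counting error (-0.08, interval -0.18 to 0.02), although corrected it was at -0.71. The measured genes left in this list, Gnpnat1, Pgm3, Uap1, Pgm1, Pgm2 and Has3, had ratios between -0.20 and 0.33, or between -0.41 and 0.18 once corrected.

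Of the 8 measured genes listed as other receptors, Itgam (1.51, corrected 1.36 and still called) and Tlr4 (1.41, corrected 0.75 and not called) were called higher. Tlr4 encodes an innate receptor and Itgam a leukocyte integrin subunit. Itgam was taken as listed, and these data do not show that its protein binds hyaluronan. Tlr4 had 99.9 CPM in the knockout and 37.5 CPM in the control. Tlr2, which encodes a related receptor, had 2916 CPM in the knockout and 1479.8 CPM in the control and stood just under the threshold at 0.98 (corrected 0.95). Of the 8 neutrophil markers 3 were called higher and 1 lower, or 4 and 1 once corrected. Their median was 0.79 and their summed level 263 CPM in the knockout and 117 CPM in the control, beside the macrophage median of 0.78. Macrophages and neutrophils express these 3 receptor genes, and their part in the ratios was not tested. The scavenger receptors of hyaluronan Stab1 (-0.07, corrected 0.29) and Stab2 (-0.02, corrected -0.09) were not called. Of the hyaluronan-binding proteoglycans and link proteins only Vcan (0.49, corrected -0.14) and Bcan (-0.41, corrected 0.47) of 9 passed the filter, and neither was called.

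The list of heavy chain family genes and matrix partners of TSG-6 held 7 genes, of which Itih1, Itih3 and Ambp were below the filter. Of the 4 measured genes 1 was called lower. All 4 ratios were below 0, but the intervals of Itih2 (-2.87 to 0.13) and Itih5 (-0.20, interval -0.62 to 0.21) include no difference. Itih4, a gene of the heavy chain family, was called lower with 14.5 CPM in the knockout and 29.6 CPM in the control (-1.03, corrected -0.86 and not called). Ptx3, a pentraxin that joins the crosslinked hyaluronan matrix, had 12.1 CPM in the knockout and 21.1 CPM in the control (-0.80, corrected -0.65). Itih2 rested on 6 reads in the knockout and 19 in the control, and was called lower only once corrected.

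Genes of lysosomal breakdown had ratios on the other side of 0. Gusb stood at 333 CPM in the knockout and 185 CPM in the control (0.85), and Hexa at 458 and 314 CPM (0.55). Neither was called, and after the correction both were called higher, Gusb at 1.07 and Hexa at 1.04. The median of the 9 macrophage markers was 0.78, and the part of macrophages in these ratios was not tested. Tmem2, the homologue of Cemip that cleaves hyaluronan at the cell surface, was at 0.22 (corrected 0.00) and was not called.

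Of the 8 CD44 partner and shedding genes 3 were called higher and none lower, against 9.37% and 14.2% of all measured genes. After the correction 2 were called higher, against 5.28%. The median of the 9 macrophage markers was 0.78, and the part of macrophages in the ratios of this list was not tested. Spp1, the gene of osteopontin, a further ligand of CD44, had 5137 CPM in the knockout and 1006 CPM in the control (2.35, corrected 2.04). The sheddases that cut CD44 were Adam10, with 284 CPM in the knockout and 126 CPM in the control (1.17), and Adam17, with 407 and 185 CPM (1.13), and both lost the call once corrected (0.59 and 0.74). Mmp14, a membrane protease that also cuts CD44, was at 0.95 and was called once corrected, at 1.29. The linkers of CD44 to actin differed in sign, with Msn at 0.87 and Rdx at 0.55 against Ezr at -0.46, and none of the 3 was called. Corrected they stood at 0.69 for Msn, 0.09 for Rdx and -0.22 for Ezr.

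**Figure D5:**
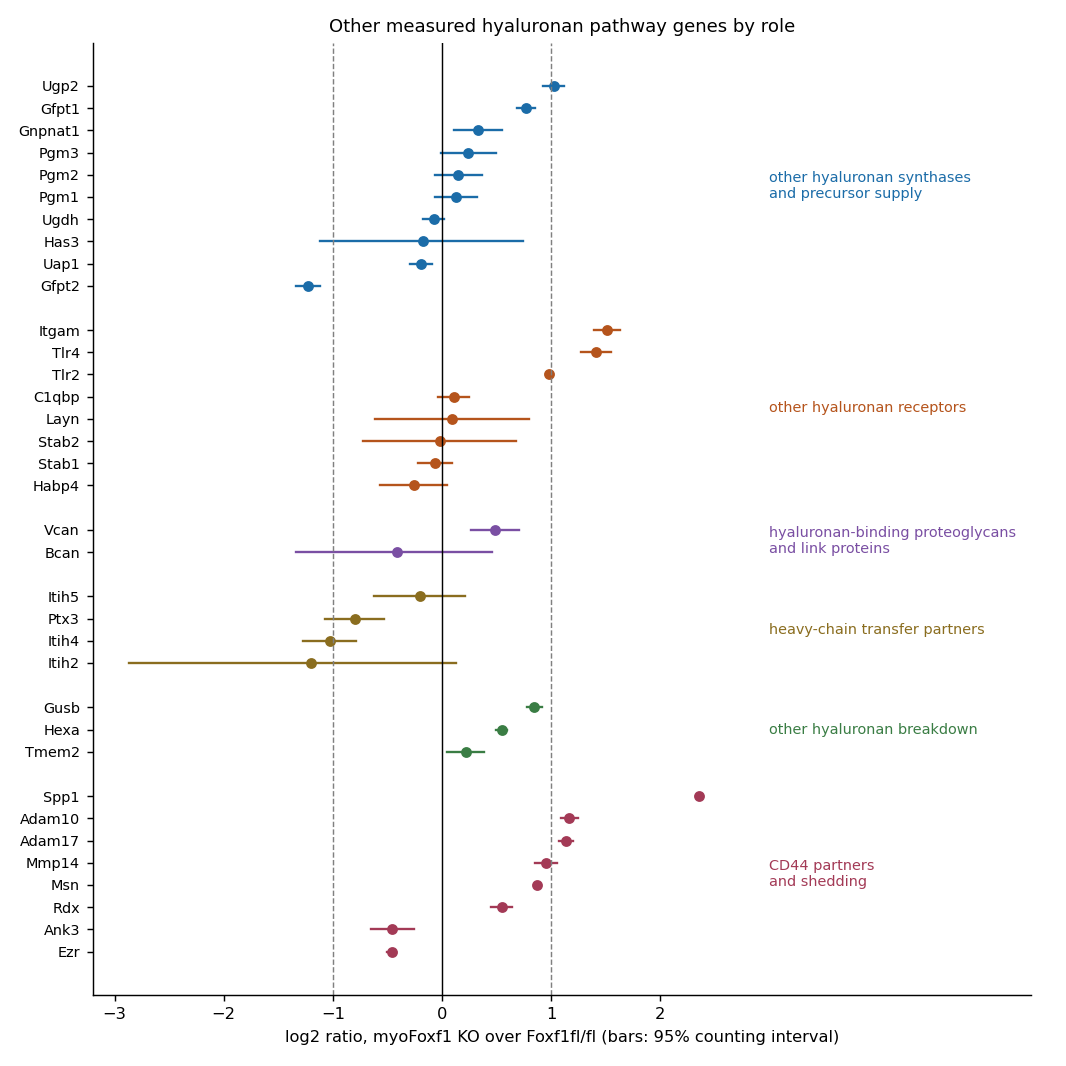
Log2 ratio of myoFoxf1 KO over Foxf1fl/fl for 35 measured genes of the other hyaluronan lists, grouped by role, with bars for the 95% counting interval and dashed lines at 2-fold. Spp1 is farthest to the right at 2.35, and Gfpt2 and Itih2 are farthest to the left at -1.23 and -1.20. The 4 measured genes of the list labelled heavy-chain transfer partners (Itih2, Itih4, Itih5 and Ptx3) have ratios below 0. The bars of Itih2 and Itih5 reach past 0.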

How the data were processed

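RNA-seq libraries of lung cells isolated as fibroblasts from myoFoxf1 KO and Foxf1fl/fl mice (1 each) were made with the Nextera XT kit, which does not mark strand, per the labels' protocols. The authors deposited estimated counts and FPKM per gene. The submitters' processing notes name TopHat, Cufflinks, GRCm38 and mm10, without versions or roles. The deposited FPKM ratio of the libraries followed the count ratio, up to a common factor, within 1% for all genes with at least 20 reads in each, so it is no independent measurement. Columns were assigned to libraries by name.

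Estimated counts were rounded and scaled with TMM (edgeR 4.0.16, R 4.3.3). Log2 ratios used a prior count of 0.5. Intervals are exact conditional binomial (Clopper-Pearson) at 95%, computed with scipy 1.17.1. They and all ratios cover counting error only. A gene was measured at 1 CPM or more in either library and 20 reads or more over both. The correction subtracted lowess trends (span 0.3, 5 rounds, statsmodels 0.14.6) on GC content and on the log2 length of each gene's longest GENCODE transcript, found for 98.9% of measured genes. Its intervals take the trend as known.

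Alternatives were library totals, size factors of DESeq2 1.42.0, ratios relative to marker medians, a prior count of 2, log2 of FPKM plus 1 or 0.1, other filters and other fold thresholds. The members, lists and motifs were chosen with earlier results of these data known. Named were all members, called pathway genes and the 2 most abundant of each list, Foxf1, the marker of highest mean CPM in each list, and called markers beside a member. Pathway genes outside that rule, Dcn, Ccl21a, Flt4, Mmrn1, Reln and Hapln1 were named after their values were seen. A gene that the rule takes is counted in its list and not reported here. Of the marker symbols, Adgre1, Chil3 and Siglecf matched no row. Calculations were tested on simulated data.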

Additional observations from a re-analysis of the deposited data

How the results depend on the processing

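With the GC and length correction 1 of the 9 genes was called higher and 3 lower, with a median log2 ratio of 0.0045, and the log2 ratio of ratios of Cd44 over Lyve1 was 1.61. Library totals alone shifted the median of all measured genes by -0.31. They gave 15.5% of calls in the higher direction against 39.8% with TMM, 2 members lower with a median of -0.72, and 3 other pathway genes higher and 4 lower with a median of -0.13. The FPKM settings cover the 7 members and 31 other genes at 1 FPKM or more in either library, without 9930013L23Rik and Hyal1. With log2 of FPKM plus 1 these members had 0 called higher and a median of -0.66, and those other pathway genes 3 higher with a median of 0.011. With FPKM plus 0.1 they had 1 higher, 2 lower and a median of -0.72, and the other genes 3 higher with a median of 0.012. Ratios relative to the fibroblast markers raise every value by the same amount, and 95.8% of all calls were then higher. The member median was then 0.64, and the other genes had 23 higher, 0 lower and a median of 1.23. Ratios relative to the macrophage markers lower every value, and 3.79% of all calls were then higher. They gave 0 members higher and 5 lower with a median of -1.19, and 1 other gene higher and 8 lower with a median of -0.60. At 1.5-fold 3 members were lower and 12 other genes higher. At 4-fold 0 members were higher, and 1 other gene was higher and 0 lower. With an interval that excludes 2-fold 1 other gene was lower, and at 10 CPM the median of the other genes was 0.41. DESeq2 size factors, a prior count of 2 and no filter on low counts left the counts within 1.5 times. Apart from the shifts by construction, the causes were not tested. With 20 to 52 reads in a library, the ratios of 9930013L23Rik and Hyal1 have the widest intervals of the 9 genes. No paired analysis was possible because each group has 1 library.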

Other observations

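Pdpn, the gene of podoplanin, a membrane protein known to bind CD44, was called higher, with 477 CPM in the knockout library and 88.2 CPM in the control library (log2 ratio 2.44, interval 2.36 to 2.52, corrected 2.46). It was listed as a lymphatic marker and was the highest of that list, while alveolar epithelium, fibroblasts and macrophages can express it as well. Hapln1, the gene of a link protein that fixes proteoglycans to hyaluronan, was below the filter, with 14 reads in the knockout and 3 in the control (log2 ratio 2.42, interval 0.79 to 5.07). Hapln1 was picked after its values were seen.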
